A study of Canis lupus familiaris with 5 samples.

Results

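CCN2, VEGFA and IGFBP4 are 3 of the 2416 genes named on an array set that compared failing with control dog heart muscle. They were taken from all probe sets whose only gene symbol is one of these names, which gave 5 of the 4653 probe sets on the arrays. CCN2 (older symbol CTGF) had 1 probe set, and VEGFA and IGFBP4 had 2 each. The 3 genes were chosen on the measured difference between failing and control arrays, so their differences are given here as a description and carry no test.

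All 3 encode secreted proteins that regulate growth. CCN2, connective tissue growth factor, is a cysteine-rich matricellular protein that is induced by TGF-beta and by mechanical load and that promotes matrix deposition by fibroblasts. VEGFA, vascular endothelial growth factor A, is induced by hypoxia and acts on endothelial cells through the receptor tyrosine kinases FLT1 and KDR, and it is made by cardiomyocytes among other cells. IGFBP4 binds insulin-like growth factors outside the cell and limits their access to the IGF1 receptor, and its cleavage by the protease PAPPA releases them. CCN2 carries an amino-terminal module related to that of the IGF-binding proteins.

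RNA was extracted from canine myocardium and hybridised to 5 one-colour oligonucleotide arrays, 2 from control dogs (control 1a and 2a) and 3 from dogs with congestive heart failure (failing 1a, 1b and 2a). Each array but control 1a held the combined RNA of 3 dogs, 4 arrays in all, and for control 1a the source was not described. Breed, age, region of the heart and the way failure was brought about were not given in the sources used here. Nothing states whether failing 1a and 1b came from separate dogs, so a p-value speaks only to the scatter among 5 arrays, part of which may be technical. In bulk tissue, fewer cells of a type and less RNA per cell cannot be told apart. Of 9 cardiomyocyte markers on the arrays, all 9 were bright enough to be tested.

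Failing 2a stood apart from the other arrays. Its correlation with them across genes was between 0.561 and 0.581, against 0.820 between failing 1a and 1b and 0.790 between the control arrays. The GAPDH and actin control probe sets are named for human genes, and how evenly they read dog RNA was not tested. The 3′ to 5′ ratio of the GAPDH sets is often read as a measure of RNA integrity. It was 2.15 and 2.32 in control and 1.42, 1.44 and 1.32 in failing myocardium. A two-sided exact permutation test gave p = 0.2, the smallest that 2 against 3 arrays allow. The actin ratio ran the other way with overlapping groups, at 0.0992 ± 0.0131 (SD, n = 2) and 0.162 ± 0.0646 (SD, n = 3, exact permutation p = 0.6). The mean log2 intensity of the bacterial control probe sets was also free of overlap, at 14.17 and 14.25 in control and 12.49, 13.80 and 13.35 in failing myocardium (exact permutation p = 0.2). The GAPDH ratio and the bacterial controls thus moved with the groups for every gene below, and their part in the differences was not tested. Intensities are on a linear scale and fell below 0 for many probe sets, for 34.7% on the array with fewest and 39.9% on failing 2a, and they were raised to 20 before taking log2.

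CCN2 was brighter on every failing array than on either control array. The intensities of its probe set, 36638_at, were 3900 and 4172 on control 1a and 2a and 11753, 11968 and 14659 on failing 1a, 1b and 2a. The dimmest failing array was thus 2.82 times as bright as the brighter control array. The group means were 4036 ± 192 (SD, n = 2) and 12793 ± 1619 (SD, n = 3). The log2 difference, failing minus control, was 1.66 ± 0.19 (SE of the limma fit), or 3.16-fold. Without failing 2a it was 1.56, or 2.94-fold.

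Arrays of the same group gave nearly the same CCN2 reading. The control arrays differed by 0.10 on the log2 scale and failing 1a and 1b by 0.03. Of the 2301 probe sets bright enough to be tested, 13.9% had a smaller gap between the control arrays and 5.82% a smaller gap between failing 1a and 1b. Failing 2a lay 0.31 above the mean of failing 1a and 1b, and 20.4% of probe sets lay closer to theirs. The spread entered the choice of CCN2 as well, so its narrowness is no independent result. A log2 difference above that of CCN2 was found for 6.87% of the 2301 probe sets. With 1 probe set, no second reading of CCN2 is at hand.

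VEGFA gave different pictures at its 2 probe sets. At 36101_s_at the intensities were 261.5 and 93.4 on control 1a and 2a and 452.0, 514.4 and 507.5 on failing 1a, 1b and 2a. All failing arrays lay above both control arrays, and the dimmest of them was 1.73 times as bright as control 1a. The group means were 177.4 ± 118.9 (SD, n = 2) and 491.3 ± 34.2 (SD, n = 3). The log2 difference was 1.65 ± 0.81 (SE), or 3.14-fold. The control arrays differed from each other by 1.49 on the log2 scale, and 84.6% of the tested probe sets had a smaller gap. The size of the difference therefore moved with the control array used, from 2.39 without control 1a to 0.91 without control 2a.

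At NM_003376_s_at the VEGFA intensities were 472.3 and 139.3 on control 1a and 2a, 633.4 and 548.2 on failing 1a and 1b, and −1183 on failing 2a. Failing 1a and 1b were above both control arrays, and failing 2a was below 0. The log2 difference of −0.43 ± 1.84 (SE) rests on that array at the floor of 20, and no fold is given. Without failing 2a it was 1.20, or 2.30-fold, in the direction of the other probe set. Control 1a was brighter than control 2a at both VEGFA probe sets, by 1.49 and 1.76 on the log2 scale. On 4 of the 5 arrays both VEGFA probe sets thus placed failing above control, and the conflict between them lay in failing 2a.

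IGFBP4 went in opposite directions at its 2 probe sets. At 39781_at the intensities were 582.9 and 802.0 on control 1a and 2a and 1095, 950.6 and 1243 on failing 1a, 1b and 2a. All failing arrays were above both control arrays, by a factor of at least 1.19. The group means were 692.5 ± 155 (SD, n = 2) and 1096 ± 146 (SD, n = 3), with a log2 difference of 0.67 ± 0.40 (SE), or 1.59-fold. Without failing 2a it was 0.58, or 1.49-fold.

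At HSPD11415_r_at the IGFBP4 intensities were 8084 and 14009 on control 1a and 2a and 2713, 5822 and 8055 on failing 1a, 1b and 2a. All failing arrays lay below both control arrays, but failing 2a was below control 1a by only 29.6 intensity units. The group means were 11046 ± 4189 (SD, n = 2) and 5530 ± 2683 (SD, n = 3), with a log2 difference of −1.08 ± 0.52 (SE), or 0.473-fold. It was −1.42 without failing 2a, −0.64 without failing 1a and −0.68 without control 2a. Failing 1a and 1b differed by 1.10 on the log2 scale at this probe set, a gap larger than that of 83.5% of the tested probe sets. At 39781_at the same arrays differed by 0.20.

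**Figure D1:**
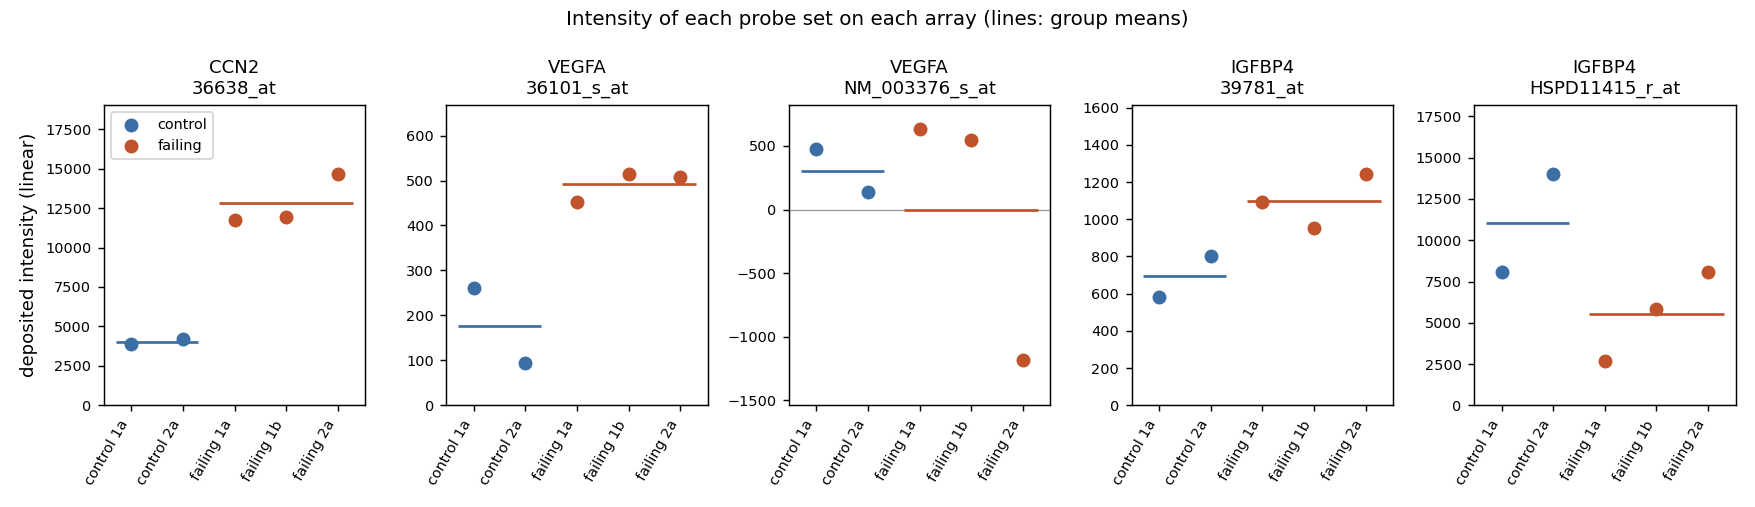
Linear intensity (vertical axis, each panel with its own scale) of the 5 probe sets on each of the 5 arrays (horizontal axis). Points are single arrays and lines are group means. CCN2 lies between 3900 and 4172 in control and between 11753 and 14659 in failing myocardium, the 2 VEGFA panels part only at failing 2a, and the 2 IGFBP4 panels run in opposite directions.

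Within the groups the 2 IGFBP4 probe sets moved together in part. Control 2a was above control 1a at both, by 0.46 and 0.79 on the log2 scale, and failing 2a was above the mean of failing 1a and 1b at both, by 0.28 and 1.02. They differed in the order of failing 1a and 1b. Across all 5 arrays their log2 values had a Pearson correlation of −0.41, and those of the VEGFA probe sets 0.02. CCN2 had a correlation of 0.91 with IGFBP4 39781_at and 0.84 with VEGFA 36101_s_at, and of −0.59 with IGFBP4 HSPD11415_r_at. These are descriptions over 5 shared arrays.

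All 5 probe sets were bright enough to be tested. Of these, 3 had failing arrays entirely above control, at CCN2, VEGFA and IGFBP4, and 1, at IGFBP4, entirely below. Among all 2301 probe sets 18.3% lay above in this way and 11.5% below. With each array divided by its 75th percentile the split of all probe sets turned from 420 above and 264 below to 278 and 388, and with quantile normalization it was 311 and 343. The 4 probe sets kept their side under both scalings. Since the genes were chosen on this contrast, nothing is read from these counts.

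Disagreement between probe sets of a gene was common on these arrays. Of 546 pairs of tested probe sets with the same gene symbol, 283 (51.8%) had log2 differences of the same sign. By gene, all probe sets had the same sign in 173 of 357 genes (48.5%). The median distance between the log2 differences of a pair was 0.85. It was 2.08 for VEGFA, larger than in 79.9% of pairs, and 1.75 for IGFBP4, larger than in 72.9%. Without failing 2a, 60.2% of pairs agreed in sign, and VEGFA was then among those that did while IGFBP4 was not.

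Agreement in sign was no more frequent among bright pairs. Among the 233 pairs in which both probe sets had a mean intensity of 1000 or more, 48.9% agreed in sign. In 54 pairs the groups did not overlap at either probe set, and 36 of these (66.7%) agreed in sign. IGFBP4 was among the 18 that did not. Within groups, 53.1% of pairs agreed on which control array was brighter, 49.6% on which of failing 1a and 1b, and 56.4% on whether failing 2a was above the mean of those.

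Probe sets ending in _r_at, such as the lower-going one of IGFBP4, are those for which the array's makers relaxed their rules for choosing probes. They were below 0 more often than those ending in _at alone, in 43.1% against 34.2% of values. The median gap between failing 1a and 1b was 0.39 on the log2 scale for the former and 0.32 for the latter, while that between the control arrays was 0.42 and 0.43. Pairs with such a probe set agreed in sign about as often as the others (51.5% and 52.1%). The annotation pairs the probe sets with human genes, and which IGFBP4 reading is nearer to the dog transcript was not tested.

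**Figure D2:**
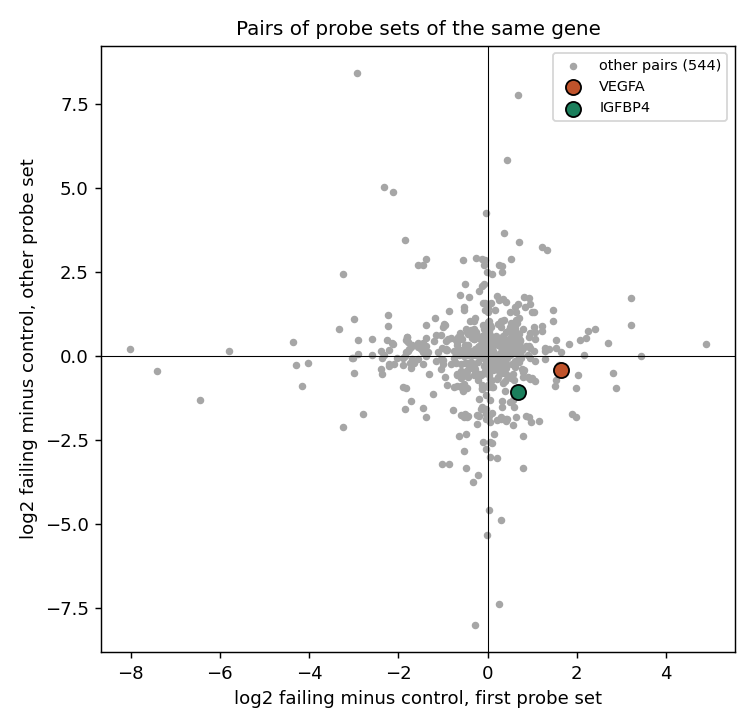
Log2 difference, failing minus control, of one probe set (horizontal axis) against another of the same gene (vertical axis) for 546 pairs, with VEGFA and IGFBP4 marked. Points to the upper right and lower left agree in sign (51.8% of pairs), and both marked pairs lie in the lower right.

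**Figure D3:**
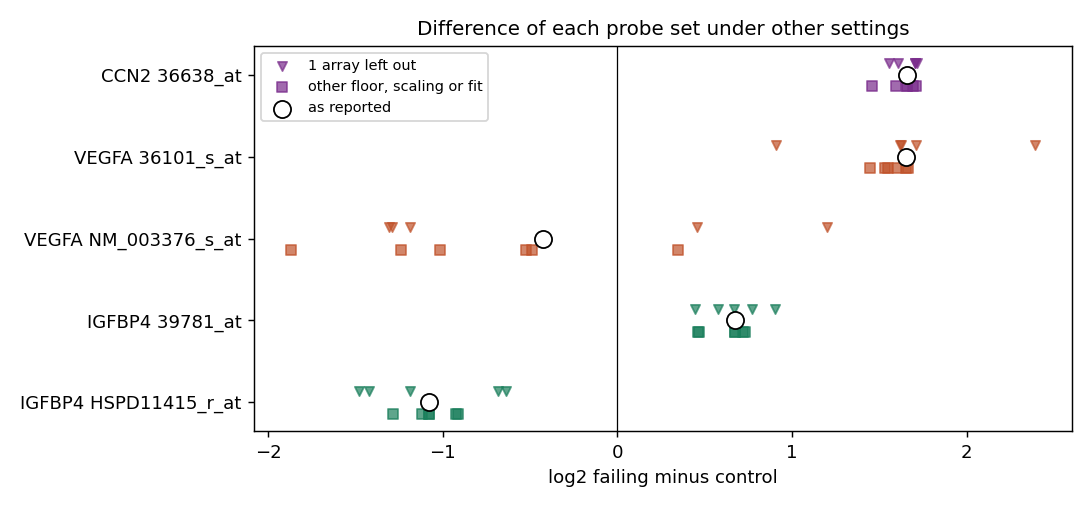
Log2 difference of each probe set (horizontal axis) as reported (open circle), with 1 array left out (triangles) and with another floor, scaling or fit (squares). CCN2 stays between 1.46 and 1.72, VEGFA 36101_s_at above 0 and IGFBP4 on either side of 0 by probe set, while VEGFA NM_003376_s_at crosses 0. Where the groups do not overlap, leaving out an array could not turn the sign.

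The partners of the 3 genes were covered thinly. Of 25 relatives, ligands, receptors and regulators looked up whatever their values, 11 were on the arrays and 6 were bright enough to be tested. Across the 1449 genes tested, limma with Benjamini-Hochberg adjustment called 0.069% higher (1 gene, CST3, a secreted protease inhibitor read below 0 on both control arrays) and 0% lower (0 genes). The other tested CST3 probe set had a log2 difference of −2.92, against 8.41 on floored values for the one that was called. At an unadjusted p under 0.05 there were 100 higher and 52 lower, and the median log2 difference of all genes was 0.15. Groups did not overlap in 19.6% of genes with failing above and in 11.8% with failing below. No gene named in the next paragraphs passed the adjusted threshold.

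The other CCN family and YAP or SRF target genes, which include relatives of CCN2 and genes that respond to tension with it, had 2 tested members of 7 on the arrays. CCN1, a matricellular relative of CCN2 that YAP also induces, had overlapping groups. It read 793.4 and 1172 in control and 1113, 356.3 and 2167 in failing myocardium, with a log2 difference of −0.02 ± 0.81 (SE, adjusted p = 0.996). ANKRD1, a cardiac stress gene of the same pathway, was too dim to be tested, at 118.4 and −95.0 in control and 192.5, 204.9 and −713.2 in failing myocardium. The median log2 difference of the list was 0.23.

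The TGF-beta list, drawn up for ligands, receptors and SMADs upstream of CCN2, had 3 tested members of 5 on the arrays. These were TGFB3, the co-receptor gene ENG and TGIF1, which encodes a SMAD corepressor. SMAD4 was below the floor on all arrays. The list median was 0.63, and 0 members had an unadjusted p under 0.05 in limma. ENG had a log2 difference of 0.11, and of −2.61 at its other tested probe set, where every failing array lay below control. TGFB3, a ligand, had intensities of 480.1 and 555.3 in control and 559.6, 545.8 and 1683 in failing myocardium. Its log2 difference was 0.63 ± 0.66 (SE, adjusted p = 0.793) and 0.10 without failing 2a, the only array on which it lay clearly above control.

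Genes of the fibrotic matrix, among them targets of CCN2 action, had 11 tested members of 15 on the arrays. In 7 of them all failing arrays lay above control and in 0 below, and the median log2 difference was 0.81, against 0.15 for all genes. FN1, TIMP3 and COL5A2, 3 of the 7, had a control mean below the brightness limit and were tested only through their failing arrays, so that they had to differ. Among the 8 genes with both group means at or above the limit, 4 lay above and 0 below, with a median of 0.64, against 18.7% above and a median of 0.12 for all genes of that kind. No member passed after adjustment in limma. At an unadjusted p under 0.05, 5 were higher, 3 of them among those 8. COL3A1, which encodes type III collagen, had 232.7 and 365.2 in control and 1560, 1593 and 1343 in failing myocardium, a log2 difference of 2.36 ± 0.43 (SE, adjusted p = 0.244). The type I collagen gene COL1A2 had 388.1 and 273.6 against 891.7, 892.2 and 621.8. The other type I collagen gene, COL1A1, had overlapping groups, at 2743 and 653.0 against 2001, 1217 and 2773. LUM, LOX and POSTN overlapped as well, with log2 differences of 0.25, −0.13 and 0.02. The type V collagen gene COL5A2 was brighter on every failing array, at 78.0 and 129.9 against 181.9, 376.9 and 136.1. The fibronectin gene FN1, below the floor on control 1a, and TIMP3, a metalloproteinase inhibitor below it on both control arrays, were brighter on every failing array too. The count above was 5 of 11 after 75th percentile scaling, against 190 of 1447 for all genes. Without failing 2a it was 5 of 9, with 1 below, against 412 above and 299 below of 1441 for all genes. Earlier results on this matrix pattern were known when the list was drawn up.

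The list of VEGF and angiopoietin ligands and receptors had 6 tested members of 9 on the arrays. The list also held FGF and PDGF genes. Its tested members were FLT1, TIE1, TEK, ANGPT1, FGFR1 and PDGFRA. Only FGFR1 (−0.56) and PDGFRA (−0.01) had a log2 difference below 0. In 1 of the 6 every failing array lay above control and in 0 below, against 19.6% and 11.8% of all genes. The VEGFA receptor gene FLT1 had 606.9 and 691.0 in control and 552.3, 1010 and 3232 in failing myocardium, so that the groups overlapped. Its log2 difference was 0.91 ± 0.79 (SE, adjusted p = 0.756), and 0.21 without failing 2a. TIE1, an endothelial receptor tyrosine kinase, was above control on all failing arrays, at 643.2 and 439.3 against 682.3, 812.2 and 1036 (log2 difference 0.64 ± 0.47, adjusted p = 0.705), and with 75th percentile or quantile scaling 0 of the 6 genes were free of overlap. VEGFB, a ligand of FLT1, was too dim to be tested and went from 389.1 and 118.4 in control to −332.6, −724.0 and −1096 in failing myocardium. The list median was 0.34, with 0 genes at an unadjusted p under 0.05. It was 0.04 without TEK, whose mean log2 in control was below the brightness limit, and it turned to −0.01 without failing 2a and −0.24 without control 1a.

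The hypoxia response genes, which share with VEGFA their induction by HIF1, went both ways. Of 12 tested of 15 on the arrays, 4 had every failing array above control and 2 every one below, against 19.6% and 11.8% of all genes. At an unadjusted p under 0.05 in limma, 1 was higher. HIF1A itself had overlapping groups at its tested probe set, at 627.2 and 475.2 in control and 445.6, 494.6 and 1113 in failing myocardium. The glycolytic gene ENO1 had 260.2 and 425.2 in control against 951.5, 825.6 and 1061 (2.83-fold, adjusted p = 0.418), and ALDOA (log2 difference 1.15 ± 0.48 SE) and HK2 (0.79 ± 0.46), also glycolytic, likewise lay above control. TPI1 (−1.05 ± 0.59) and GAPDH (−0.67 ± 0.34), also glycolytic, lay below. The other 2 TPI1 probe sets bright enough to be tested had overlapping groups, with log2 differences of −0.08 and 0.61. The list median was 0.20, close to that of all genes, −0.02 without failing 2a and −0.0041 after 75th percentile scaling.

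For IGFBP4, the list of other IGF ligands, receptors and binding proteins had 6 tested members of 10 on the arrays. The list also held proteases. Its tested members were IGF2, IGFBP1, IGFBP5 and the protease genes HTRA1, PLAU and CTSD. The log2 differences of HTRA1, PLAU and CTSD were 0.07, 0.72 and −0.33. IGF2, a ligand that IGFBP4 binds, had 334.1 and 262.3 in control and 504.0, 398.1 and 907.5 in failing myocardium, above control on all failing arrays (log2 difference 0.94 ± 0.64 SE, adjusted p = 0.681). Its other probe set was below 0 on all arrays. IGFBP5, a related binding protein, lay at 836.1 and 751.3 against 905.4, 976.4 and 1131 (0.34 ± 0.37, adjusted p = 0.799). IGF1, IGF2R and IGFBP6 were too dim to be tested. IGF1, the other main ligand, had 90.01 and 210.3 in control against 45.6, −117.8 and −453.5. IGF2R, which clears IGF2, was below 0 on all arrays, and IGFBP6 had overlapping groups. The list median was 0.40, with 0 genes at an unadjusted p under 0.05. Without overlap 2 genes lay above and 0 below, against 19.6% and 11.8% of all genes. Under 75th percentile or quantile scaling 1 was above, against 190 of 1447 and 212 of 1450 for all genes. Without failing 2a 2 were above and 1 below, against 412 above and 299 below of 1441 for all genes.

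The insulin and IGF signaling relay inside the cell had 10 tested members of 18 on the arrays, 4 of them brighter on every failing array and 0 dimmer. These were MAP2K1, the kinase that activates ERK (log2 difference 1.06 ± 0.27, adjusted p = 0.299), PTPN11, a tyrosine phosphatase (1.56 ± 0.76), PIK3R1, the regulatory subunit of PI3-kinase (1.37 ± 0.71), and AKT1 (1.36 ± 0.65). MAP2K1 was the 1 member at an unadjusted p under 0.05, with 2350 and 1658 in control and 3601, 4185 and 4670 in failing myocardium. The list median was 0.68, and 0.27 without failing 2a. After 75th percentile scaling 4 were above and 2 below, against 190 above and 241 below of 1447 for all genes.

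**Figure D4:**
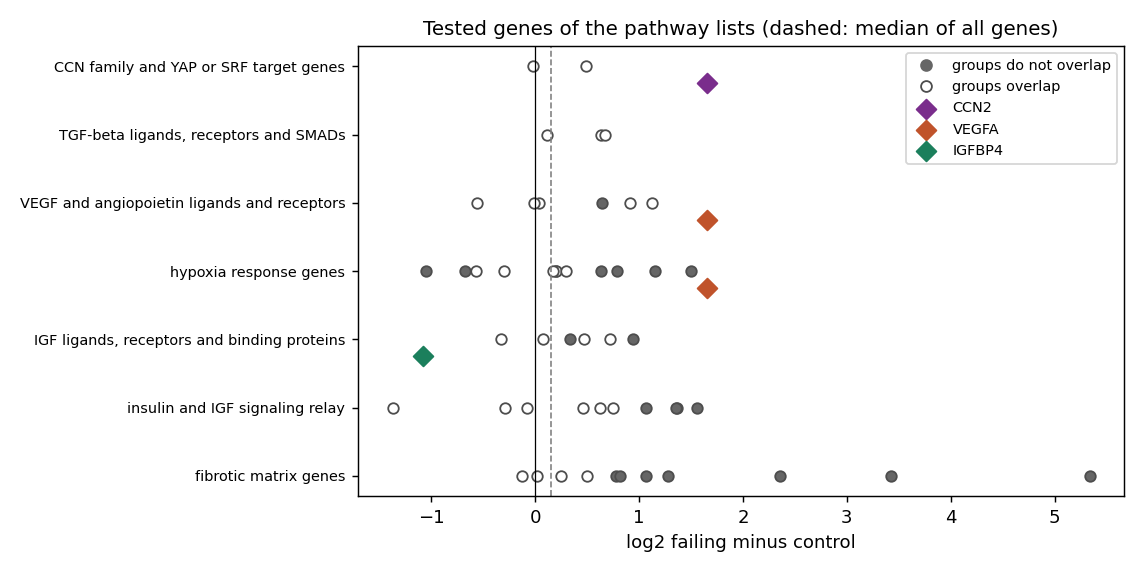
Log2 difference, failing minus control (horizontal axis), of each tested gene of the 7 pathway lists (rows). Filled points have groups that do not overlap, open points overlap, diamonds mark CCN2, VEGFA and IGFBP4 at their brightest probe set, and the dashed line is the median of all genes (0.15). VEGFA is drawn at 36101_s_at and IGFBP4 at HSPD11415_r_at, and their other probe sets are not drawn. VEGFA NM_003376_s_at was the brighter of its pair on every array but failing 2a, where it was below 0. CCN2 lies to the right of the other 2 genes of its list. The points furthest to the right are the matrix genes TIMP3 and FN1, which had a control mean below the brightness limit and so had to differ.

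Summed markers of some cell types, but not of others, were free of overlap between the groups. Of 8 endothelial markers on the arrays, each at its brightest probe set, 4 had every failing array above control and 0 below. Among all genes tested, 19.6% lay above in this way and 11.8% below. CDH5, among the 4, read 34.5 and 137.7 in control, both below the brightness limit (140.1 as an intensity). Its other probe set, too dim to be tested, had overlapping groups and a log2 difference of −1.38 on floored values. The summed intensity of the endothelial markers was 6400 to 7689 in control and 8414 to 15521 in failing myocardium. ENG, the brightest of them, had another tested probe set with every failing array below control, at 5158 and 8319 against 1598, 1488 and 522.6. Without ENG the endothelial sums were 3309 to 4489 in control and 6262 to 9358 in failing myocardium. Of 10 fibroblast markers 2 lay above and 0 below, a share close to that of all genes, and their sums overlapped (14537 to 19355 and 15830 to 25083). Cardiomyocyte markers summed to 142877 to 152551 in control and 111491 to 121905 in failing myocardium, with 2 of 9 above and 3 below. Without MYH6, the brightest, these sums were 92687 to 102847 and 82362 to 84649. The mean log2 intensity of the 9 markers overlapped, at 12.55 and 12.27 in control and 12.51, 12.52 and 12.50 in failing myocardium. Of the 7 smooth muscle and pericyte markers 4 were tested, with 2 above and 1 below. CNN1 and PDGFRB were below the floor on all arrays. The 7 summed to 30768 to 53810 in control and 60783 to 85770 in failing myocardium. Most of that sum was DES, which encodes desmin and is also made by cardiomyocytes, and without it the sums overlapped (4893 to 5091 and 4538 to 6821). The 5 leukocyte markers, with CD163 and ITGAM below the floor on all arrays, summed to 2981 to 3276 and 3023 to 6616, also with overlap, and 0 of them were free of it. The part of these values in the readings of CCN2, VEGFA and IGFBP4 was not tested.

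Red cell, adipocyte and skeletal muscle markers also had overlapping sums. The 2 red cell markers summed to 3301 to 5270 in control and 4424 to 5549 in failing myocardium. The 4 adipocyte markers summed to 10618 to 11172 and 9608 to 13007, and the 7 skeletal muscle markers to 20556 on both control arrays and 18656 to 35910 on the failing arrays.

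The genes whose log2 values followed each probe set most closely over the 5 arrays were named by their Pearson correlation, as a description over 5 arrays on which many genes correlate highly. For CCN2 they were YWHAQ (r = 0.998), PER1 (0.996) and PSMD11 (0.996). YWHAQ, a 14-3-3 protein, had 3269 and 3361 in control and 5227, 5161 and 5454 in failing myocardium. PER1, a circadian regulator, was below 0 on both control arrays and between 558.7 and 1807 on the failing arrays. For VEGFA 36101_s_at they were EIF5 (0.996), KIF22 (0.995) and DEXI (0.995), and for NM_003376_s_at ATP5MG, RPS3 and PQBP1 (0.996 each), all lowest on failing 2a. For IGFBP4 39781_at they were FN1 (0.994), TIMM50 (0.990) and EMP3 (0.988), and for HSPD11415_r_at CFD (0.995), COX6A1 (0.981) and MKRN4P (0.970).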

How the data were processed

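Each array's deposited values are linear intensities, 1 for every probe set. The authors' scanner software, background correction and normalization are not given in the sources used here. The mean of every array, without the lowest and highest 2% of probe sets, was 800, so no scaling was added. Of 4653 probe sets, 52 array controls were left out. Of the other 4601, 3724 had 1 symbol in the platform annotation, 72 several and 805 none.

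Intensities were raised to 20 and put on the log2 scale. Probe sets with a mean log2 at or above the median (7.13) were tested, and the brightest represented its gene. Failing and control arrays were compared with limma 3.58.1 in R 4.3.3 (intensity trend, two-sided, Benjamini-Hochberg, threshold 0.05). The fit was tested on simulated data. Genes were named by a rule: from each of 7 pathway lists up to 5 non-overlapping genes of largest difference, 25 fixed genes, and the 3 closest correlates of each probe set. The genes, lists and rule were chosen with earlier results of these data known. Other floors, scalings, filters and fits were tried, and arrays were left out in turn. The number of arrays limits the precision.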

Additional observations from a re-analysis of the deposited data

How the results depend on the processing

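Differences of the probe sets kept their sign under all 11 alternatives for CCN2 (1.46 to 1.72), VEGFA 36101_s_at (0.91 to 2.39) and both IGFBP4 probe sets (0.44 to 0.90 and −1.48 to −0.64). With an array left out or failing 1a and 1b averaged, these signs could not change, because the groups do not overlap. Floors of 1 and 100 changed no value of CCN2 or IGFBP4. The lowest value of CCN2, 1.46, came from 75th percentile scaling, and both ends for VEGFA from leaving out a control array. VEGFA NM_003376_s_at turned to 0.35 with a floor of 100, and leaving out 1 array gave −1.31 to 1.20. The number of called genes was 0 with a floor of 1 or with failing 1a and 1b averaged. It was 2 with 75th percentile scaling or with all probe sets tested, 3 without the trend and 5 without the filter. It was 0 without failing 1a or without failing 1b, and 13 without failing 2a. Leaving out a control array leaves a lone one that is assumed to vary like the failing ones, so no count is given there. Non-overlapping probe sets above control fell to 278 with 75th percentile scaling, and those below reached 618 without the filter. With 1 array left out they numbered 572 to 717 and 350 to 483. That rise follows from the rule, since groups that do not overlap stay so with fewer arrays. Agreement of probe sets lay between 48.9% and 60.2% in 8 alternatives. The median of all genes was −0.052 with 75th percentile scaling and −0.0016 with quantile normalization, and that of the hypoxia list −0.0041 with the former. With 1 array left out the hypoxia median was −0.017 to 0.67 and the VEGF list median −0.24 to 0.63. The failing minus control GAPDH 3′ to 5′ ratio was −0.93 to −0.75 with 1 array left out. The titles share the numbers 1 and 2 between groups without saying what they mean, and deviations of like-numbered arrays had a correlation of 0.012 across genes. With the number as a replicate block, 1 gene was called and CCN2 had 1.69, VEGFA 1.55 and −1.02, and IGFBP4 0.73 and −0.93. Leaving out arrays in turn for the overlap and agreement counts, and the brightness limit of 1000, were chosen after seeing the data. The cause of the other shifts was not tested.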
